A study of Mus musculus with 18 samples.

Results

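The dura mater of mast cell-deficient mice that had been given mast cells was set against the dura of deficient mice that had not, in animals without stroke. The comparison holds 6 of the 18 arrays of the study, 3 naive engrafted and 3 naive deficient, picked by their titles, and every one of the 21640 probe sets with exactly 1 gene symbol entered the test. Naive engrafted mice were male WBB6F1-KitW/W-v mice that had received mast cells into a vein 8 to 10 weeks earlier. Naive deficient mice were male WBB6F1-KitW/W-v mice that received none. Both groups therefore carry the same mutant Kit alleles, W and W-v, in every cell of the host. The labels do not say from which donor or tissue the transferred cells came, nor how many were given. Naive wild-type mice (male WBB6F1-Kit+/+, no engraftment) show the level with normal Kit. The same comparison in other mice comes from 3 stroke engrafted and 3 stroke deficient animals of the same KitW/W-v genotype, in which a filament closed the middle cerebral artery for 30 minutes and the dura was taken 2 days later. The labels give an age of 17 to 21 weeks at stroke surgery, and naive mice were age-matched. Mice were perfused with cold saline before the dura, the outermost of the membranes around the brain, was removed, and each dura was hybridised to a gene-level Affymetrix array of its own.

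Mast cells are long-lived tissue cells that need signals through the receptor Kit to survive, and they are plentiful in the dura, along blood vessels and nerves. Their granules hold histamine, heparin and large amounts of serine proteases and carboxypeptidase A, which are released when antigen cross-links IgE on the high-affinity receptor or when cationic peptides bind Mrgprb2. Mutations of Kit also reduce red cell formation, germ cells and pigment cells, so mice of this genotype lack more than mast cells. Transfer of mast cells with normal Kit is the usual way to ask which traits of such mice depend on the mast cells.

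The make-up of the tissue on each array bears on the values that follow. Dural fibroblast genes, which include collagens, were high on all 9 naive arrays, with list means of 11.66 to 11.91 in engrafted, 11.65 to 12.01 in deficient and 11.66 to 11.83 in wild-type dura on the log2 scale. Choroid plexus genes were uneven: the mean of 9 genes was 10.93, 11.12 and 8.30 on engrafted arrays 1, 2 and 3, and 8.41, 11.50 and 8.20 on deficient arrays 1, 2 and 3. Ttr, the transport protein that the choroid plexus secretes, had 13.57, 13.61 and 10.17 in engrafted and 10.01, 13.73 and 9.25 in deficient dura, so that engrafted array 3 and deficient arrays 1 and 3 lay below 11. Engrafted array 3 also stood apart in blood cell genes, as described further on. Array medians lay between 7.77 and 7.91, and the median standard error (SE) of a difference between 3 arrays and 3 was 0.10. In whole tissue, fewer cells of a type and less RNA per cell cannot be told apart.

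Engraftment set apart a handful of granule proteases. In naive engrafted dura 4 probe sets were higher than in naive deficient dura and 0 were lower at a Benjamini-Hochberg adjusted p under 0.05 (limma), which is 0.0185% of those tested. They were Mcpt2, a chymase typical of mucosal mast cells in the mouse, Cpa3, the mast cell carboxypeptidase, Mcpt4, the main chymase of mast cells in connective tissue, and Tpsb2, a tryptase that is stored bound to heparin. All 4 are proteases of mast cell granules. At an unadjusted p under 0.05 there were 667 higher probe sets (3.08%) and 349 lower ones (1.61%), together 1016 against 1082 expected if nothing differed. The median log2 difference over all probe sets was 0.02, and 57.2% lay above 0. Over the brighter 10820 probe sets, fitted alone, that median was -0.01. The shares of all probe sets given beside the lists below were not matched for level.

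**Figure D1:**
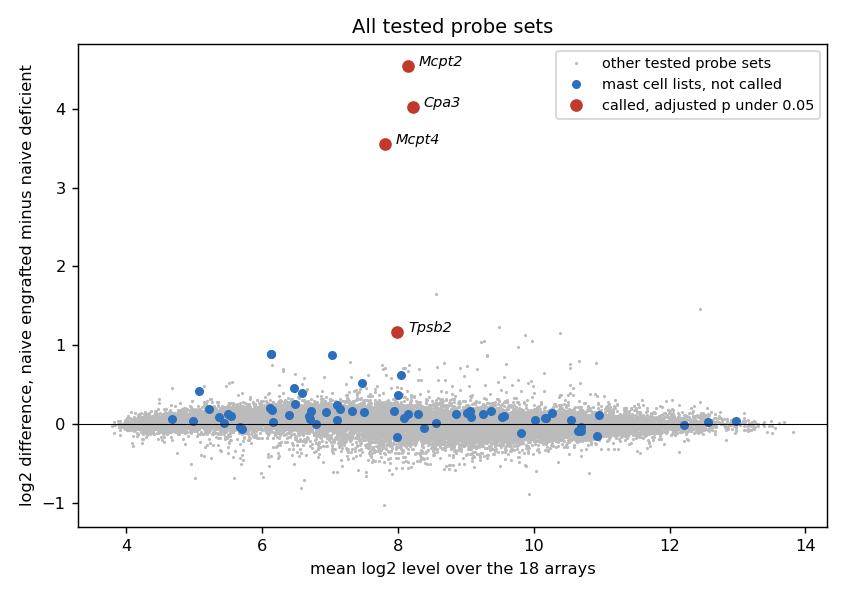
Log2 difference (vertical axis, naive engrafted minus naive deficient dura, 3 arrays each) of each of the 21640 tested probe sets against its mean log2 level over the 18 arrays (horizontal axis). Red points are the 4 called genes, blue points the other measured genes of the mast cell lists and grey points all else. Mcpt2, Cpa3 and Mcpt4 lie at 3.55 and above, apart from the rest of the array.

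The upstream sequences of 2 called proteases, Cpa3 and Mcpt4, are shown beside that of Cma1, a chymase that did not pass, and that of Mcpt1, a related chymase whose level was low in all groups. GATA1 and GATA2 are transcription factors of mast cells, and their short binding motif was searched in the 250 bases before each transcript start (RefSeq, GRCm38.p6) as AGATAA, with a first base T as TGATAA, with a last base G as AGATAG and with both as TGATAG, on both strands. The windows are Cpa3 (chr3:20242182-20242431, minus strand), Mcpt4 (chr14:56062311-56062560, minus strand), Cma1 (chr14:55944676-55944925, minus strand) and Mcpt1 (chr14:56017714-56017963, plus strand), each printed 5′ to 3′ with the motif in capitals.
Cpa3: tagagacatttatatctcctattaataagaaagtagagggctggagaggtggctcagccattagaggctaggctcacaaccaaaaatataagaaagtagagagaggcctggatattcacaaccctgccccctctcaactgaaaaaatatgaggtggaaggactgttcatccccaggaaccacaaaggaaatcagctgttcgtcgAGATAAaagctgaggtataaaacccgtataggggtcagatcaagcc
Mcpt4: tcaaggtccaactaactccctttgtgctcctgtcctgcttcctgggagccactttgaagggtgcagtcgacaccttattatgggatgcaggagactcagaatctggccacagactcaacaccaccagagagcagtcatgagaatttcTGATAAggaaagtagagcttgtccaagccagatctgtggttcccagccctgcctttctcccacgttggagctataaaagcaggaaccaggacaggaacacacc
Cma1: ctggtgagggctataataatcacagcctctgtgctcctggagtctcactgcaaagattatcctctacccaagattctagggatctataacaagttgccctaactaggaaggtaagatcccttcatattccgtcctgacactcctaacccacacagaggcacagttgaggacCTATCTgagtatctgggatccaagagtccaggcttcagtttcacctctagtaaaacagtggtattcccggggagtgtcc
Mcpt1: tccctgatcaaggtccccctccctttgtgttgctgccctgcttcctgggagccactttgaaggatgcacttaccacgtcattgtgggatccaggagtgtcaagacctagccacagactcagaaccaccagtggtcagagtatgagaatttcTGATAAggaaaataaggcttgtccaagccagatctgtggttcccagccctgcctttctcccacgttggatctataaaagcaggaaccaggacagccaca
Each of these windows held 1 match, which began at position -46 from the start in Cpa3, -103 in Mcpt4, -79 in Cma1 (where the motif reads on the other strand) and -99 in Mcpt1. Of 32851 such windows in the table, 26.5% held at least 1 match. The windows of Mcpt4 and Mcpt1 were identical at 81.9% of 260 alignment columns, against 54.1% for Mcpt4 and Cma1. A match describes the letters of the window and says nothing of binding.

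Mcpt2 had log2 levels of 10.77, 9.40 and 8.64 in engrafted dura, against 4.93, 5.13 and 5.13 in deficient dura and 10.05, 9.71 and 9.61 in wild type. Every engrafted array lay far above every deficient one, and the engrafted arrays spanned a wider range than the wild-type arrays, reaching above and below them. The difference was at least 4.54 ± 0.36 (log2, SE), or at least 23.3-fold (adjusted p = 2.8e-05). It is a lower bound because the deficient levels were under the lower quartile of their arrays (6.09 to 6.24 over the 18 arrays), and signal above background is not established there.

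Cpa3 had 10.90, 9.67 and 8.76 in engrafted dura, against 5.82, 5.66 and 5.80 in deficient dura and 9.79, 9.13 and 9.41 in wild type. Its engrafted arrays stood in the same order as those of Mcpt2, array 1 highest and array 3 lowest. The difference was at least 4.02 ± 0.37, or at least 16.2-fold (adjusted p = 0.000128). Mcpt4 had 10.39, 8.95 and 8.12 in engrafted dura, against 5.39, 5.82 and 5.59 in deficient dura and 9.24, 8.99 and 9.19 in wild type, again with no overlap between engrafted and deficient arrays. Its difference was at least 3.55 ± 0.37, or at least 11.7-fold (adjusted p = 0.000433). With 1 array left out the differences ranged from 3.46 to 4.53 for Cpa3 and from 2.93 to 4.07 for Mcpt4.

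Tpsb2 had 8.81, 8.23 and 7.89 in engrafted dura, against 7.10, 7.26 and 7.08 in deficient dura and 8.52, 8.21 and 8.29 in wild type. The groups did not overlap here either, although the gap was smaller and the deficient level was well within the range of the array. The difference was 1.16 ± 0.16, or 2.24-fold (adjusted p = 0.0162). With these 6 arrays alone in the fit 0 probe sets passed, with adjusted p of 0.585 for Mcpt2, 0.629 for Cpa3, 0.844 for Mcpt4 and 0.844 for Tpsb2, beside 1141 probe sets at an unadjusted p under 0.05. Tpsb2 also lost its call without deficient array 1 or 3 (adjusted p = 0.145 and 0.147) and without engrafted array 2 (0.0742), while Mcpt2, Cpa3 and Mcpt4 kept theirs in those fits. A fit without the 5 arrays of the study with Ttr below 11 left 2 engrafted arrays against deficient array 2 alone, and Tpsb2 had an adjusted p of 0.159 there.

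**Figure D2:**
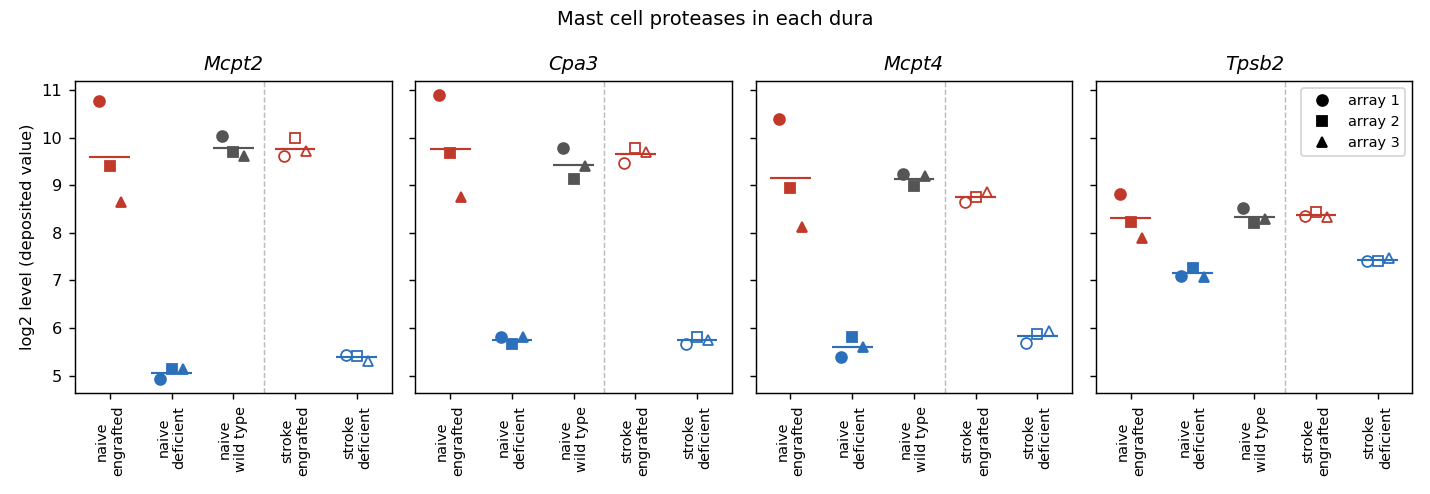
Log2 level of Mcpt2, Cpa3, Mcpt4 and Tpsb2 (vertical axis) on each array of naive engrafted, naive deficient, naive wild-type, stroke engrafted and stroke deficient dura (horizontal axis). Filled points are naive and open points stroke arrays, symbols give the array number and bars the mean of 3 arrays. In all 4 genes naive engrafted array 1 is highest and array 3 lowest of the group, and no engrafted array reaches down to a deficient one.

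The level reached by engraftment was close to that of wild type in the mean, with wide intervals. Engrafted minus wild-type differences were -0.18 for Mcpt2 (95% interval -0.94 to 0.57), 0.34 for Cpa3 (-0.45 to 1.12), 0.02 for Mcpt4 (-0.76 to 0.80) and -0.03 for Tpsb2 (-0.38 to 0.32). None passed (adjusted p = 0.807, 0.641, 0.986 and 0.94), and the intervals leave room for clear differences either way. When engrafted was set against wild-type naive dura over all genes the fit called 0 probe sets, and 164 with array weights. At an unadjusted p under 0.05 there were 4143 (19.1%), against 1082 expected if nothing differed. The 0 calls thus do not show that the groups were alike over all genes. The standard deviation among engrafted arrays was 1.08 for Mcpt2, 1.07 for Cpa3, 1.15 for Mcpt4 and 0.47 for Tpsb2, against 0.23, 0.33, 0.13 and 0.16 among wild-type arrays. The intervals above use 1 spread shared by all 6 groups, so they understate the spread of the engrafted arrays and are too narrow for these genes. The SEs of these genes against deficient dura come from the same fit and are too small as well, as are their adjusted p. These 2 comparisons share the engrafted arrays, so their values are given side by side only.

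The other proteases of the list reached the test less clearly. The list holds 12 genes, of which 10 were measured. Of these 4 rose, 0 fell and 6 did not pass. All 10 differences lay above 0, with a median of 0.74 beside 0.02 over all probe sets, and 7 genes had every engrafted array above every deficient array, against 8.52% of all probe sets. Cma1, a chymase of connective tissue mast cells, had 7.85, 7.28 and 6.86 in engrafted dura, against 6.46, 6.48 and 6.44 in deficient dura, and its difference of 0.87 ± 0.19 did not pass (adjusted p = 0.735). Tpsab1, a second tryptase, had 7.73, 7.48 and 7.31 against 6.99, 6.99 and 6.97 in deficient dura, a difference of 0.52 ± 0.12 (adjusted p = 0.917). In both genes the deficient arrays were nearly equal and the engrafted arrays all lay above them.

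Gzmb, granzyme B of cytotoxic lymphocytes and of some mast cells, had 7.14, 6.75 and 6.39 in engrafted dura, against 6.32, 6.19 and 6.41 in deficient dura, so that the groups overlapped at engrafted array 3. Its difference was 0.45 ± 0.13 (adjusted p = 0.917), and 0.64 without engrafted array 3 (adjusted p = 0.0491). Ctsg, cathepsin G of neutrophil precursors and mast cells, ran the other way within the engrafted group, with 7.51, 7.63 and 8.02 against 7.15, 7.07 and 7.08 in deficient dura (0.62 ± 0.42, adjusted p = 0.917). Mcpt1, the mucosal chymase whose upstream window resembles that of Mcpt4, lay between 4.68 and 4.74 in engrafted and between 4.57 and 4.75 in deficient dura, under those lower quartiles. Tpsg1, a tryptase anchored in the membrane, had a difference of 0.14 ± 0.11 (adjusted p = 0.92). Mcpt1, Mcpt2 and Mcpt4 are close relatives, and whether the probes keep their transcripts apart is not known here.

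Receptors by which mast cells sense IgE and peptides gave 0 calls among 10 measured genes of 12, with a median of 0.17. There were 9 differences above 0, against 57.2% of all probe sets, and 5 genes had all engrafted arrays above all deficient ones, against 8.52%. Fcer1a, the chain of the high-affinity receptor that binds IgE, had 7.06, 6.30 and 6.06 in engrafted dura, against 5.57, 5.63 and 5.57 in deficient dura and 6.15, 6.02 and 6.10 in wild type. The engrafted arrays lay above all deficient arrays, with array 1 above all wild-type arrays too. The difference was 0.88 ± 0.18 (adjusted p = 0.512), and without engrafted array 3 it was 1.09 (adjusted p = 0.0491). The deficient levels of Fcer1a, and of Mrgprb1 below, were under the lower quartile of the arrays like those of Mcpt2, Cpa3 and Mcpt4, so these differences are lower bounds too. Ms4a2, the beta chain of the same receptor, had 5.59, 5.55 and 5.47 against 5.38, 5.44 and 5.42 in deficient dura, without overlap and with a small difference (0.12 ± 0.07, adjusted p = 0.917). All these Ms4a2 levels were under the lower quartile of the arrays, so signal above background is not established in either group. Fcer1g, the gamma chain that macrophages also use, had a difference of 0.11 ± 0.10 (adjusted p = 0.935).

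Mrgprb1, a receptor of the family that mast cells use to sense peptides, had 7.22, 6.42 and 5.74 in engrafted dura, against 5.48, 5.71 and 5.55 in deficient dura and 6.59, 6.16 and 6.61 in wild type. Engrafted array 3 lay just above the highest deficient array, and the difference was 0.88 ± 0.25 (adjusted p = 0.917). Mrgprb2, the receptor for cationic peptides and many drugs, had 5.63, 5.04 and 4.90 against 4.83, 4.83 and 4.67 in deficient dura (0.41 ± 0.14, adjusted p = 0.917), with all levels below the lower quartile of the arrays. Kit had 9.19, 9.07 and 9.07 in engrafted dura, against 8.98, 8.91 and 9.19 in deficient dura and 9.41, 9.83 and 9.36 in wild type. Its engrafted and deficient arrays overlapped (0.09 ± 0.15, adjusted p = 0.962), and both groups lay below wild type. The level does not check the genotype, since it is not known here which stretches of the Kit transcript the probes cover.

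**Figure D3:**
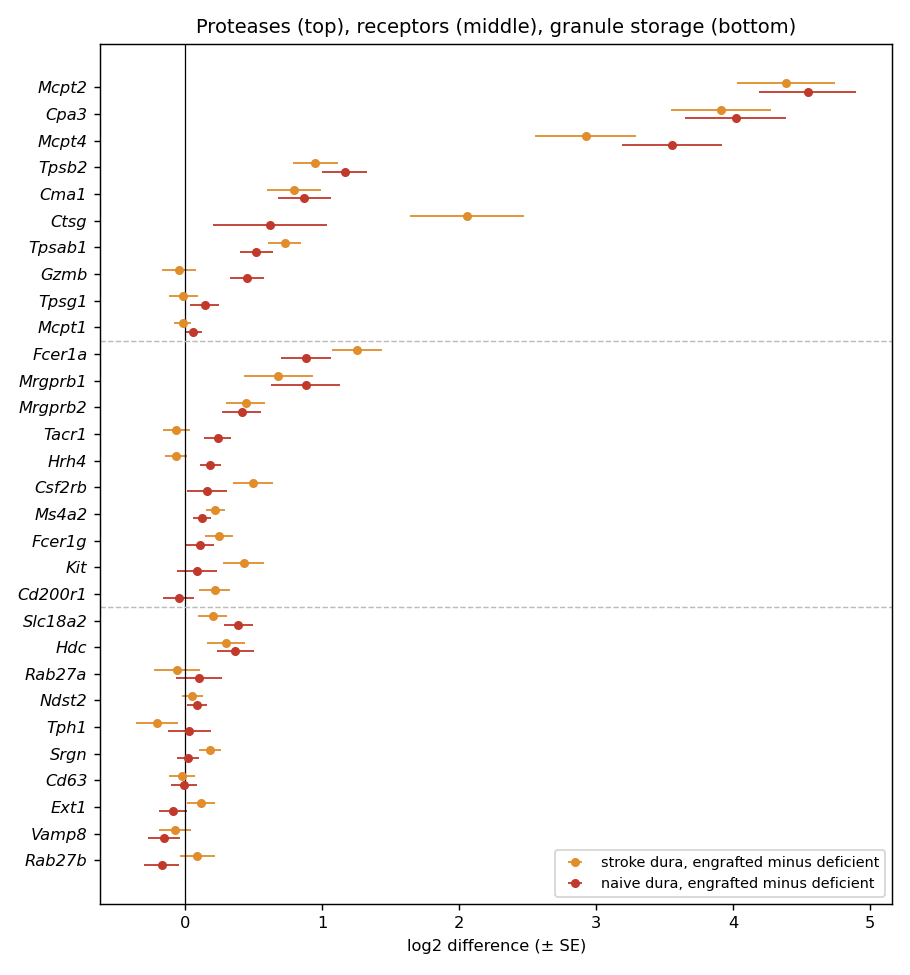
Log2 difference with its SE (horizontal axis) of the 30 measured genes of the protease, receptor and granule storage lists (vertical axis), engrafted minus deficient, in stroke dura (orange) and in naive dura (red), 3 arrays a group. Mcpt2, Cpa3 and Mcpt4 stand at 2.92 or more in both, while most storage genes lie near 0.

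Genes that fill and empty the granule had a median difference near 0, although Slc18a2 and Hdc lay higher. Of 10 measured storage genes 0 passed and 6 lay above 0, beside 57.2% of all probe sets, with a median of 0.03. Slc18a2, the transporter that loads histamine and serotonin into granules, had 6.79, 6.67 and 6.64 in engrafted dura, against 6.44, 6.20 and 6.30 in deficient dura, without overlap (0.39 ± 0.10, adjusted p = 0.917). Hdc, the enzyme that makes histamine, had 8.31, 7.81 and 7.94 against 7.41, 7.90 and 7.65, with overlap (0.37 ± 0.14, adjusted p = 0.917). Srgn, the proteoglycan core that holds proteases in granules and that most blood cells make, differed by 0.02 ± 0.08 (adjusted p = 0.98). Tph1, which makes serotonin in mast cells and is abundant in the pineal gland, stood at 12.78 to 13.17 on these 6 arrays and differed by 0.03 ± 0.15 (adjusted p = 0.986). The fusion proteins Rab27b and Vamp8 had differences of -0.17 ± 0.13 and -0.15 ± 0.12 (adjusted p = 0.927 for both).

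In the lists of mast cell signalling molecules and transcription factors (12 measured), eicosanoid enzymes plus Cyp11a1 (7 together) and cytokines (17), 0 genes passed. Their medians were 0.10, 0.08 and 0.10, with 11, 5 and 14 differences above 0. Gata1, a transcription factor of mast cells, red cells and platelets, had 6.55, 6.60 and 6.69 in engrafted dura, against 6.40, 6.36 and 6.31 in deficient dura and 6.27, 6.28 and 6.44 in wild type (0.26 ± 0.07, adjusted p = 0.917). Unlike the called proteases it was highest on engrafted array 3, where red cell genes were high too. Gata2 differed by 0.13 ± 0.14 and Mitf, the factor that mast cells share with pigment cells, by 0.05 ± 0.21 (adjusted p = 0.941 and 0.984). Among enzymes, Cyp11a1, which makes pregnenolone, had the smallest p (0.19 ± 0.09, adjusted p = 0.917), and Hpgds, the prostaglandin D synthase of mast cells, differed by 0.01 ± 0.15 (adjusted p = 0.998). Among cytokines Il4 differed by 0.17 ± 0.07, Il9 by 0.18 ± 0.08 and Il13 by 0.19 ± 0.12 (adjusted p = 0.917 for each), and Tnf and Il6 lay near 0 (-0.00 ± 0.12 and 0.04 ± 0.53). Ligands that feed mast cells in the tissue had a median of 0.01 over 9 measured genes, and Kitl, the ligand of Kit, differed by -0.08 ± 0.11 (adjusted p = 0.954).

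Over the 6 mast cell lists together 66 of 74 genes were measured, and 18 of them had every engrafted array above every deficient array, while 1 had every engrafted array below, beside 8.52% and 3.54% of all probe sets. In stroke dura 19 had every engrafted array above, beside 3.81% of all probe sets. Both comparisons held 11 of these genes: Cma1, Cpa3, Ctsg, Fcer1a, Mcpt2, Mcpt4, Mrgprb1, Mrgprb2, Ms4a2, Tpsab1 and Tpsb2. The share of all probe sets that did so in both comparisons was not counted, so this number is a description only. Mrgprb2 and Ms4a2 were under the lower quartile of the arrays in engrafted and deficient naive dura alike.

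The engrafted animals differed from each other in mast cell genes. Engrafted array 1 exceeded array 3 by 2.13 for Mcpt2, 2.14 for Cpa3, 2.27 for Mcpt4 and 1.48 for Mrgprb1. After this order was seen, all probe sets were searched for genes with engrafted array 1 above 2 and 2 above 3, and all of them above every deficient array. With a gap of at least 0.7 between arrays 1 and 3 the search found 8 probe sets, all members of the mast cell lists: Cma1, Cpa3, Fcer1a, Mcpt2, Mcpt4, Mrgprb1, Mrgprb2 and Tpsb2. At a gap of at least 0.3 it found 12, of which 9 were in the lists, and the others were Chil1, Mrgprx2 and Slc6a4, the serotonin transporter. The bare order 1, 2, 3 occurred in 14.2% of all probe sets. The rule was chosen on these values, so the count is a description with no test.

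Split by Ttr, the differences of the 3 main proteases were as follows. Among arrays high in Ttr, the mean of engrafted arrays 1 and 2 exceeded deficient array 2 by 4.96 for Mcpt2, 4.63 for Cpa3 and 3.85 for Mcpt4. Among arrays low in Ttr, engrafted array 3 exceeded the mean of deficient arrays 1 and 3 by 3.61, 2.95 and 2.63. In each class 1 arm was a single array: deficient array 2, and engrafted array 3, the lowest of its group in these genes. The gap between the classes thus cannot be told apart from the order of the engrafted arrays. The part of choroid plexus tissue in these differences was not tested.

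The same comparison after stroke used other mice. There 5 probe sets were higher and 1 was lower in stroke engrafted than in stroke deficient dura (0.0277% of those tested). Mcpt2 had 9.61, 9.99 and 9.72 in stroke engrafted dura, against 5.44, 5.42 and 5.31 in stroke deficient dura, a difference of at least 4.39 ± 0.36 (adjusted p = 4.62e-05). Cpa3 was higher by at least 3.91 ± 0.37 and Mcpt4 by at least 2.92 ± 0.37 (adjusted p = 0.000124 and 0.00408). Tpsb2 had 8.36, 8.44 and 8.34 against 7.41, 7.41 and 7.48, without overlap, and its difference of 0.95 ± 0.16 did not pass (adjusted p = 0.0825). Fcer1a passed here, by at least 1.26 ± 0.18 (adjusted p = 0.0152). That call was lost when any stroke deficient array or stroke engrafted array 2 or 3 was left out (0.0685 to 0.149). It was also lost without the arrays low in Ttr and with only the compared groups in the fit (0.0704). The other higher gene was Mmp3, and the lower one was Slc6a14, an amino acid transporter (-1.08 ± 0.15, adjusted p = 0.0105), which lost its call without stroke deficient array 3 (0.0526), without stroke engrafted array 3 (0.0698), without the arrays low in Ttr (0.178) and with only the compared groups (0.858). Stroke engrafted arrays stood close together, with a standard deviation of 0.20 for Mcpt2, against 1.08 among naive engrafted arrays.

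Whether the engrafted minus deficient difference itself changed with stroke was tested gene by gene. Only Mmp3, a matrix-degrading enzyme, passed (0.00462% of probe sets). For the proteases the stroke minus naive change of the difference was -0.16 ± 0.50 for Mcpt2, -0.11 ± 0.52 for Cpa3, -0.63 ± 0.52 for Mcpt4 and -0.21 ± 0.23 for Tpsb2 (adjusted p = 0.923, 0.95, 0.65 and 0.734). For Fcer1a it was 0.37 ± 0.26 (adjusted p = 0.598). The intervals of the proteases were wide, from -1.23 to 0.91 for Mcpt2. They also rest on the spread shared by all 6 groups, so they understate that of the naive engrafted arrays.

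Genes of blood cells lay higher in naive engrafted dura without passing the test. All 8 genes of granulocyte precursors had every engrafted array above every deficient array, beside 8.52% of all probe sets. Their median was 0.44, 0 of 8 passed and 0 had an unadjusted p under 0.05. The list mean was 7.004, 7.04 and 7.54 in engrafted dura, against 6.71, 6.78 and 6.71 in deficient dura and 7.20, 7.12 and 7.06 in wild type. Mpo, the peroxidase of neutrophil granules, had 7.52, 7.73 and 8.41 in engrafted dura, against 6.95, 7.34 and 7.25 in deficient dura (0.71 ± 0.43, adjusted p = 0.917). Chil3, a chitinase-like protein of young neutrophils and macrophages, had 5.91, 5.82 and 7.23 against 5.68, 5.46 and 5.48 (0.78 ± 0.41, adjusted p = 0.917), with deficient levels under the lower quartile of their arrays, so that this difference is a lower bound too. Engrafted array 3 was highest in both, and without it the median of the list was 0.29. Ctsg belongs to this list and to the protease list, so its value counts in both.

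Mature neutrophil genes had a median of 0.41 over 13 genes, all above 0 beside 57.2% of all probe sets, with 0 passing. Every engrafted array lay above every deficient array in 4 of them, beside 8.52% of all probe sets. S100a8, a calcium-binding protein that neutrophils hold in bulk, had 8.98, 8.93 and 10.49 in engrafted dura, against 8.08, 8.76 and 8.40 in deficient dura and 10.60, 9.59 and 10.38 in wild type. Engrafted arrays 1 and 2 lay only just above the highest deficient array, while array 3 lay near wild type (1.05 ± 0.44, adjusted p = 0.917). Erythroid genes had a median of 0.43 over 6 of 11 measured genes, and their list mean was 7.47, 7.54 and 8.39 in engrafted dura, against 7.37, 7.26 and 7.37 in deficient dura. Slc4a1, the anion exchanger of red cells, had 8.78, 9.01 and 10.31 against 8.56, 8.70 and 8.71 (0.71 ± 0.38, adjusted p = 0.917). Cell cycle genes (12 measured, median 0.21) had a list mean of 8.21 on engrafted array 3, against 7.63 and 7.56 on arrays 1 and 2 and 7.47 to 7.69 in deficient dura. In stroke dura the medians were 1.01 for mature neutrophil, 0.56 for erythroid and 0.63 for cell cycle genes, with 0 passing. That of granulocyte precursor genes was 1.44 there, also with 0 passing, beside -0.02 over all probe sets. Without naive engrafted array 3 the naive medians were 0.16 for neutrophil, 0.11 for erythroid and 0.02 for cell cycle genes. The array that was highest in blood cell genes was thus the lowest of its group in the 4 called proteases, and the part of blood cells in the result was not tested.

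**Figure D4:**
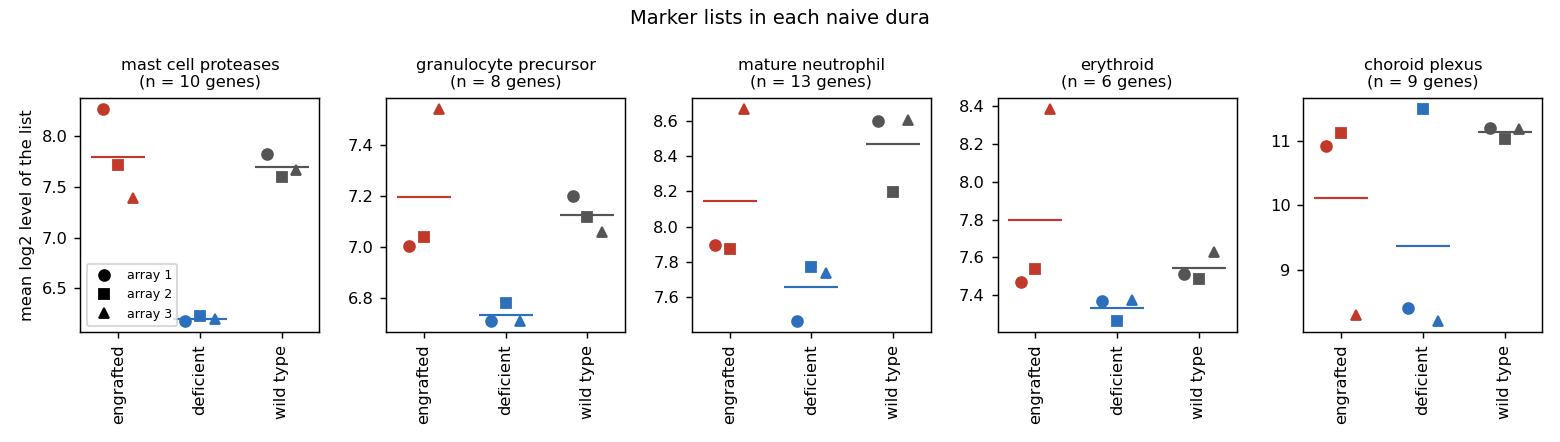
Mean log2 level of each marker list (vertical axes, own scale in each panel) on each naive array of engrafted, deficient and wild-type dura (horizontal axis). Symbols give the array number and bars the mean of 3 arrays. Engrafted array 3 is lowest of its group in mast cell proteases (7.39) and choroid plexus genes (8.30) and highest in erythroid genes (8.39).

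Markers of cells close to mast cells were at low levels. All 8 basophil genes lay above 0, against 57.2% of all probe sets, with a median of 0.17, and 0 passed. In 5 of them the engrafted arrays all lay above the deficient ones, against 8.52% of all probe sets. Shares among probe sets of a like low level were not counted. Fcer1a belongs to this list as well, and it is not the only member shared with the mast cell lists. These counts are thus not separate from those of the mast cell lists. Cd200r3, a receptor of basophils and mast cells, had 4.96, 4.82 and 4.75 in engrafted dura, against 4.69, 4.63 and 4.64 in deficient dura, all below the lower quartile of the arrays (0.19 ± 0.08, adjusted p = 0.917). Il3ra, the interleukin 3 receptor, differed by 0.17 ± 0.08 (adjusted p = 0.917). Melanocyte genes, whose cells also need Kit, had a median of 0.10 over 10 genes, and eosinophil genes 0.17 over 6, with 0 passing in either. The part of basophils in the higher Fcer1a level was not tested.

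Medians of lists of other cells in the tissue were 0.06 for 13 resident macrophage genes, -0.06 for 11 dural fibroblast genes, 0.21 for 6 adipocyte genes and 0.37 for 7 skeletal muscle genes, with 0 passing in any of these lists. All adipocyte and muscle genes lay above 0, and 3 of the adipocyte genes had every engrafted array above every deficient one, beside 57.2% and 8.52% of all probe sets. Without engrafted array 3 the median of the muscle genes was 0.12. C1qb, a complement chain of macrophages, had 11.59, 11.45 and 11.55 in engrafted dura, against 11.30, 11.29 and 11.44 in deficient dura (0.19 ± 0.08, adjusted p = 0.917). Choroid plexus genes had a median of 0.75 over 9 genes, with 0 passing and 0 free of overlap. With engrafted arrays 1 and 2 set against deficient array 2 alone, the arrays high in Ttr, that median was -0.60.

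The 10 higher and 10 lower single genes with the smallest p that did not pass included several whose engrafted arrays also lay apart from the wild-type arrays. These genes were picked on the same engrafted arrays, so the wild-type values are given side by side only and are no second test. B130046B21Rik, a transcript of unknown role, came closest to passing, with 7.72, 7.74 and 7.51 in engrafted dura, against 7.15, 7.38 and 7.17 in deficient dura and 7.33, 7.33 and 7.33 in wild type. Its difference from deficient dura was 0.42 ± 0.07 (adjusted p = 0.124), and it passed without deficient array 2, without engrafted array 3 and with array weights (adjusted p = 0.027, 0.027 and 0.000589). The transcripts 4930562F07Rik (0.49 ± 0.09, adjusted p = 0.346) and D030025P21Rik (0.59 ± 0.12, adjusted p = 0.477) also had all engrafted arrays above all deficient and wild-type arrays, and passed with array weights (adjusted p = 0.018 and 0.00724). In stroke dura the same differences were -0.15, 0.00 and -0.19. The other higher genes were Fcer1a, Cma1, Tpsab1, Slc18a2, 9430041J12Rik, Cel and Olfr915.

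Among lower genes, H60b, a ligand of the killer cell receptor NKG2D, had 7.69, 7.57 and 7.71 in engrafted dura, against 8.15, 7.94 and 8.17 in deficient dura and 7.93, 8.03 and 7.92 in wild type (-0.43 ± 0.09, adjusted p = 0.605). With array weights it passed (adjusted p = 0.00683). Kcnj2, an inward rectifier potassium channel, had 9.65, 9.72 and 9.71 against 10.04, 10.05 and 10.04, each group nearly constant (-0.35 ± 0.09, adjusted p = 0.917). Mmp16, a membrane-bound metalloproteinase, differed by -0.45 ± 0.12 and Abca6, a lipid transporter, by -0.32 ± 0.08 (adjusted p = 0.917 for both). The others were Mir18, Zfp119a, Phf14, Pnpla8, Mindy2 and Nr4a2.

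Immediate early genes, which cells switch on within minutes of a stimulus, were on the lower side in engrafted dura. Of 10 genes 0 passed, 1 lay above 0 and 2 had every engrafted array below every deficient array, beside 3.54% of all probe sets, with a median of -0.27. Nr4a1, an orphan nuclear receptor, had 9.95, 9.91 and 9.90 in engrafted dura, against 10.95, 11.36 and 10.10 in deficient dura and 11.26, 11.38 and 11.23 in wild type. The engrafted arrays were nearly equal and lay below all others of naive dura (-0.88 ± 0.26 against deficient, adjusted p = 0.917, and -1.37 ± 0.26 against wild type, adjusted p = 0.0904). Atf3, a stress-induced factor, had 8.10, 7.93 and 8.11 against 8.58, 8.28 and 8.45 in deficient dura (-0.39 ± 0.14, adjusted p = 0.917). Deficient array 2 had the highest list mean of these genes (9.50) and of neuron genes (10.92), and without it the median was -0.10. Without engrafted array 3 it was -0.38, and with engrafted arrays 1 and 2 against deficient array 2 alone it was -0.60. The part of neural tissue in this difference was not tested.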

How the data were processed

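RNA from the dura of 18 mice was measured on Affymetrix gene-level arrays, 1 mouse per array. The values are the log2 summary values per probe set that the authors deposited, and per the submitters' processing notes RMA, affy and R 3.0.0 were used, in roles not stated. Scan dates and batches are not given in the sources used here, so no batch was tested. The platform annotation gave 1 gene symbol to 21640 of 34760 probe sets, which entered the tests as 19937 genes, while 1321 with several symbols and 11799 without an entry were not used. No value was rescaled. For 21553 probe sets the gene identifier was found in RefSeq (GRCm38.p6).

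Tests were two-sided. Limma 3.58.1 (R 4.3.3) estimated 1 mean per group from the 18 arrays together. Its moderated variances rested on 12 residual plus 3.41 prior degrees of freedom, and Benjamini-Hochberg adjustment ran over the 21640 probe sets of each comparison. All 6 groups share the estimate of spread, because 3 arrays against 3 leave few degrees of freedom. An exact permutation test of 3 against 3 cannot give a two-sided p under 0.1. For the 954 genes with more than 1 probe set, the brightest on average was used.

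Genes were named by rule: Kit, the called genes, the mast cell lists, the 10 genes of smallest p on each side that did not pass, and up to 4 per other list. Chil1, Mrgprx2 and Slc6a4 were named after their values were seen. Members and the 37 lists were chosen with earlier results of these data known. Of their 346 genes 313 were measured. The fit was tested on simulated data. Promoter windows were aligned globally with Biopython 1.88. Python 3.11.15 with pandas 2.3.3 and matplotlib 3.10.9 gave the tables and plots. Alternatives were each array left out, a replicate block, only the compared groups, dim probe sets left out, quantile normalization repeated, robust trended variances, array weights, every probe set and a minimum of 1.5-fold. Fits without the 5 arrays with Ttr below 11 and with the Ttr class as a block were added after the data were seen.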

Additional observations from a re-analysis of the deposited data

Results flagged for a closer look

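Mmp3, a metalloproteinase that degrades matrix, was the one gene whose engrafted minus deficient difference itself differed between stroke and naive dura. It had 9.51, 9.84 and 9.59 in stroke engrafted and 8.21, 7.56 and 7.34 in stroke deficient dura, a difference of 1.94 ± 0.18 (log2, SE; limma adjusted p = 0.00012), which did not pass with only the compared groups in the fit (0.149). In naive dura it had 6.36, 6.81 and 6.70 in engrafted and 6.76, 6.73 and 6.98 in deficient mice, with overlap (-0.20 ± 0.18, adjusted p = 0.935). The difference between the differences was 2.14 ± 0.25 (adjusted p = 0.00683). It did not pass with only these 4 groups in the fit (0.201) or without the arrays low in Ttr (0.341), where naive deficient dura was 1 array. Groups of 3 arrays are too small to search for single outlying arrays, and none were searched for.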

How the results depend on the processing

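Between naive engrafted and naive deficient dura, the same 4 genes passed with the replicate block, a second quantile normalization, trended variance, every probe set, a 1.5-fold minimum and the Ttr class as a block. The fit called 0 with only these groups and 0 with dim probe sets left out (the called genes are among those left out), 8 with array weights and 3 to 7 when 1 array was left out. Without engrafted array 3 it called 7, adding B130046B21Rik, Fcer1a and Gzmb, and without the arrays low in Ttr it called 6, with Egr2, Npas4 and Nr4a1 lower. In that last fit deficient array 2, which was highest in immediate early genes, stood alone for its group and was assumed to vary like the others. Same-numbered arrays of the 2 groups deviated together with r of -0.15, 0.34 and 0.26, and differently numbered ones with r from -0.35 to 0.23. These values do not decide whether the numbers pair mice, and the main fit used no pairing. Against wild type, engrafted dura gave 3 calls (only these groups), 2 (replicate block), 1 (dim left out), 3 (second normalization), 1 (trended variance), 164 (array weights), 4 (every probe set) and 1 (without arrays low in Ttr), and 0 to 6 with 1 array left out. Deficient against wild type gave 0 (dim left out), 36 (array weights) and 3 to 10 with 1 array left out. In stroke dura 0 passed with dim probe sets left out and 4 to 39 with 1 array left out. The change with stroke gave 0, 0, 2 and 0 calls with only these groups, dim left out, array weights and arrays low in Ttr left out. Signs turned for some small differences. Tpsg1 was -0.027 and Ttr -0.14 without the arrays low in Ttr, and Mcpt1 was -0.0040 with array weights. Cd200r1 was 0.18 without those arrays and ranged from -0.145 to 0.076 with 1 array left out. For engrafted minus wild type, Mcpt2 and Tpsb2 were 0.30 and 0.18 without the arrays low in Ttr, and Tpsb2 was 0.022 with the Ttr class as a block. With 1 array left out, that difference ranged from -0.77 to 0.30 for Mcpt2, from -0.23 to 0.85 for Cpa3, from -0.60 to 0.53 for Mcpt4 and from -0.279 to 0.18 for Tpsb2, and engrafted arrays 1 and 3 gave the ends. The change with stroke ranged from -0.64 to 0.42 for Mcpt2, from -0.62 to 0.45 for Cpa3 and from -0.42 to 0.037 for Tpsb2. The causes of these turns were not tested. The number of arrays, 3 a group, limits the precision.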
